A study of Rattus norvegicus with 30 samples.

Results

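Capture of methylated DNA at gene promoters was compared between TBI and sham-operated rats in the ipsilateral hippocampus. The comparison used all 10 hippocampus libraries of a series of 30, which came from 10 adult male Sprague-Dawley rats and also covered the perilesional cortex and the ipsilateral thalamus. Sham rats 1 to 5 had been anaesthetised and operated on without an impact, and TBI rats 6 to 10 had received a lateral fluid-percussion impact to the left hemisphere. Both groups were killed at 3 months, and the tissue is labelled hippocampus. The labels' protocol describes its dissection as dentate gyrus with CA3c-b, whereas the study's methods name the hippocampus including the dentate gyrus. Methylated fragments were enriched by MBD-seq and the reads were counted in windows from 5000 bp upstream to 200 bp downstream of each transcription start site. The table held 22307 windows with 20196 Ensembl identifiers, of which 6 windows had no count in any hippocampus library. A first comparison used 5 TBI against 5 sham libraries. A second one left out sham rat 5, whose profile was cortex-like, and TBI rat 9, which had extreme counts in some windows, and compared 4 against 4. Fluid percussion injures the cortex directly and the hippocampus below it, and the sham operation in both comparisons included the craniectomy.

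Cytosines followed by guanine (CpG sites) are the main site of DNA methylation in mammals. Promoters rich in CpG sites are mostly unmethylated in active genes, and dense methylation of a promoter usually goes with silencing of its gene. In MBD-seq, the methyl-CpG binding domain of a protein pulls down methylated fragments, so that a window's count rises with its methylation but also with its number of CpG sites. The count gives no percentage of methylation. In dissected tissue, a change in the makeup of cell types and a change of methylation within a cell type cannot be told apart.

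The promoter assays of the study show what kind of sequence such windows can hold. Below are 300 bases around the pyrosequenced site upstream of Wdr26, which encodes a WD-repeat subunit of a ubiquitin ligase, and of Ppid, which encodes a peptidyl-prolyl isomerase of the cyclophilin family. Both are from build Rnor_5.0, plus strand, chr13:104530432-104530731 for Wdr26 and chr2:197689383-197689682 for Ppid, and capitals mark the stretch that the 2 sequences share on opposite strands.
Wdr26: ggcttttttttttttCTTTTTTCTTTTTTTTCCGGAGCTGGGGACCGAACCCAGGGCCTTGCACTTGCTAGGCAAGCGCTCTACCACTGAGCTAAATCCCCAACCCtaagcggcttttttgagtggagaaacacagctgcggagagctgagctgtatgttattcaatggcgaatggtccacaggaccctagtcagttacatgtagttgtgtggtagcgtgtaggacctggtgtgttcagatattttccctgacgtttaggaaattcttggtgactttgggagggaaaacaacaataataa
Ppid: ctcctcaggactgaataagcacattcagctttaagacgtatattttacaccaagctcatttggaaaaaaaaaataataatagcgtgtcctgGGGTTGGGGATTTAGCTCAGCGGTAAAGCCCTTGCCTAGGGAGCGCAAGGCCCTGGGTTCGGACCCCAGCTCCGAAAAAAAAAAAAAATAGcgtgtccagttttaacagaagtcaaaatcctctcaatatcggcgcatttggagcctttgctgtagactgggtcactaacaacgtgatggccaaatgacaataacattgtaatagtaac

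The shared stretch aligned over 91 bases, of which 81 (89.0%) were identical. Its sequence has the form of the ID element, a short interspersed repeat of rodents that is derived from a transfer RNA and is present in very many copies in the rat genome. The printed bases held 8 CpG sites for Wdr26 and 10 for Ppid. The assayed CpG site of Ppid lay inside the shared stretch and that of Wdr26 outside it. The longest run of identical letters, ctgagctaaatccccaaccc (20 bases), was found on either strand in 128 of 33469 RefSeq promoters of build GRCr8 (0.382%), read from 250 bases before to 50 bases after the start site. An exact match misses diverged copies, and the counted windows are longer and of another build, so this share does not give theirs. All 33469 promoters together held a median of 7 CpG sites, and 1831 had none. The windows of Wdr26 and Ppid could not be looked up, because the sources used here give no symbol for an identifier.

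The libraries held 1430875 to 2440662 promoter counts, and TMM, the edgeR scaling of library size, gave factors of 0.793 to 1.32. Levels are given below as CPM, the count scaled to a common library size with TMM. Each library was placed between the hippocampus (0) and the cortex (1) by its median position over promoters that differed at least 4-fold between 8 hippocampus and 8 cortex libraries (265 identifiers higher and 65 lower in cortex). The library of sham rat 5 was at 0.909, within reach of the 8 cortex libraries (0.818 to 1.27) although it is labelled hippocampus. The shift was not toward cortex alone. On the same kind of scale from hippocampus (0) to thalamus (1), sham rat 5 was at 0.623 and sham rat 2 at 0.284, and 90.2% of the 265 identifiers higher in cortex were also more than 2-fold higher in thalamus. The paper's methods give a different Illumina instrument for thalamus than for cortex and hippocampus. Tissue and instrument can therefore not be told apart on the thalamus scale and in the thalamus shares below. Toward cortex, sham rat 2 was at 0.337 and TBI rat 9 at 0.217, and the other 7 libraries lay between −0.129 and 0.0996. Sham rat 5 exceeded all other hippocampus libraries by more than 2-fold in 655 windows and TBI rat 9 in 263, against 0 to 9 in the other 8. TBI rat 9 exceeded all others by more than 8-fold in 36 windows, sham rat 5 in 2, and the other 8 in 0.

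**Figure D1:**
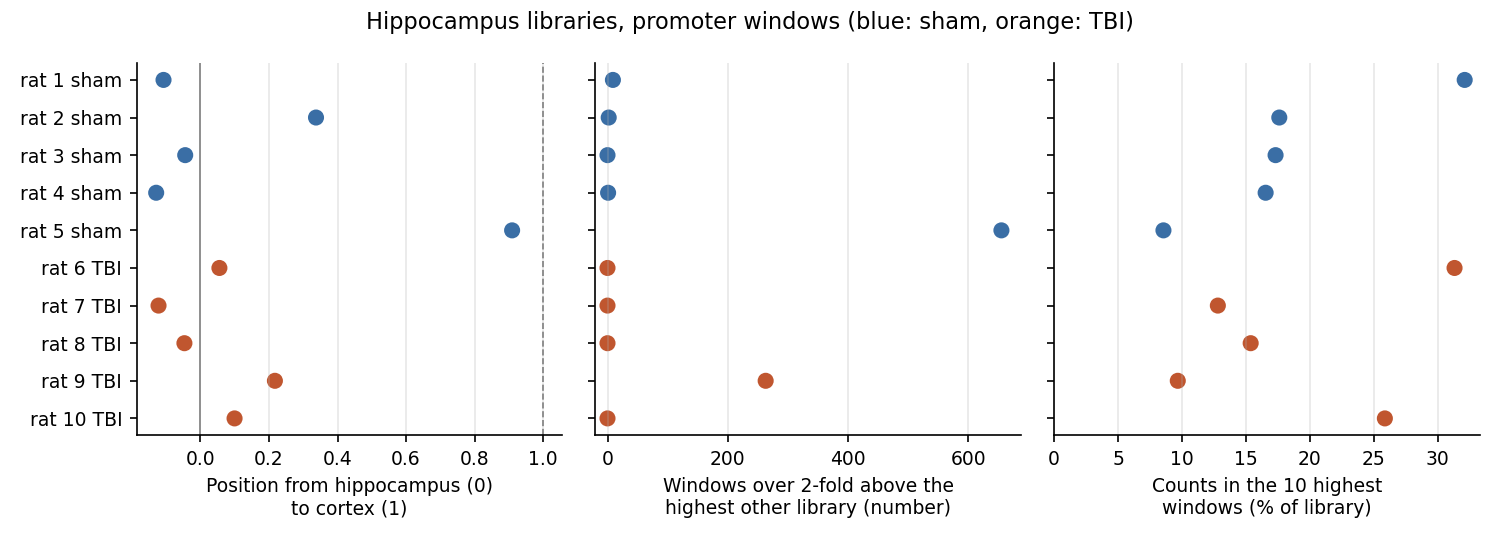
Position between hippocampus and cortex (left, no unit), number of windows over 2-fold above the highest other library (middle) and share of counts in the 10 highest windows (right, %), with 1 point per hippocampus library (blue sham, orange TBI). Sham rat 5 lies at 0.909 near the cortex line and has 655 windows above all other libraries, TBI rat 9 has 263, and the share of the highest windows ranges from 8.55% to 32.1%.

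With 10 libraries, no promoter window passed the test between TBI and sham. Of 20017 windows with enough counts, 0 (0%) had a Benjamini-Hochberg adjusted p below 0.05 by quasi-likelihood testing in edgeR, and the smallest was 1.00. Before adjustment, 570 windows (2.85%) were below 0.05, of which TBI had the higher level in 250 (1.25%) and the lower in 320 (1.6%). Scaling by library totals instead, the split was 113 higher and 282 lower, and limma voom with sample quality weights gave 555 higher and 387 lower. DESeq2 called 0 and had 394 at an unadjusted p under 0.05. The log2 fold changes had a median of 0.00 and 5th and 95th percentiles of −0.50 and 0.34, with a median standard error of 0.23. The CPM of the 2 groups did not overlap in 42 windows that were higher (0.21%) and 38 that were lower in TBI (0.19%). Random labelling of 5 against 5 libraries separates a window in either direction with a probability of 0.00794, the smallest exact two-sided permutation p. The 2 shares together were below this. The paper, by its own test, reports hippocampus promoters with changed methylation at an FDR under 0.05, Wdr26 and Ppid among them. Its pyrosequencing in rats of the same cohort found no changed methylation of either gene in the hippocampus. An exact test with a common dispersion, given below, made calls here too, so the number of calls depends on the test.

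**Figure D2:**
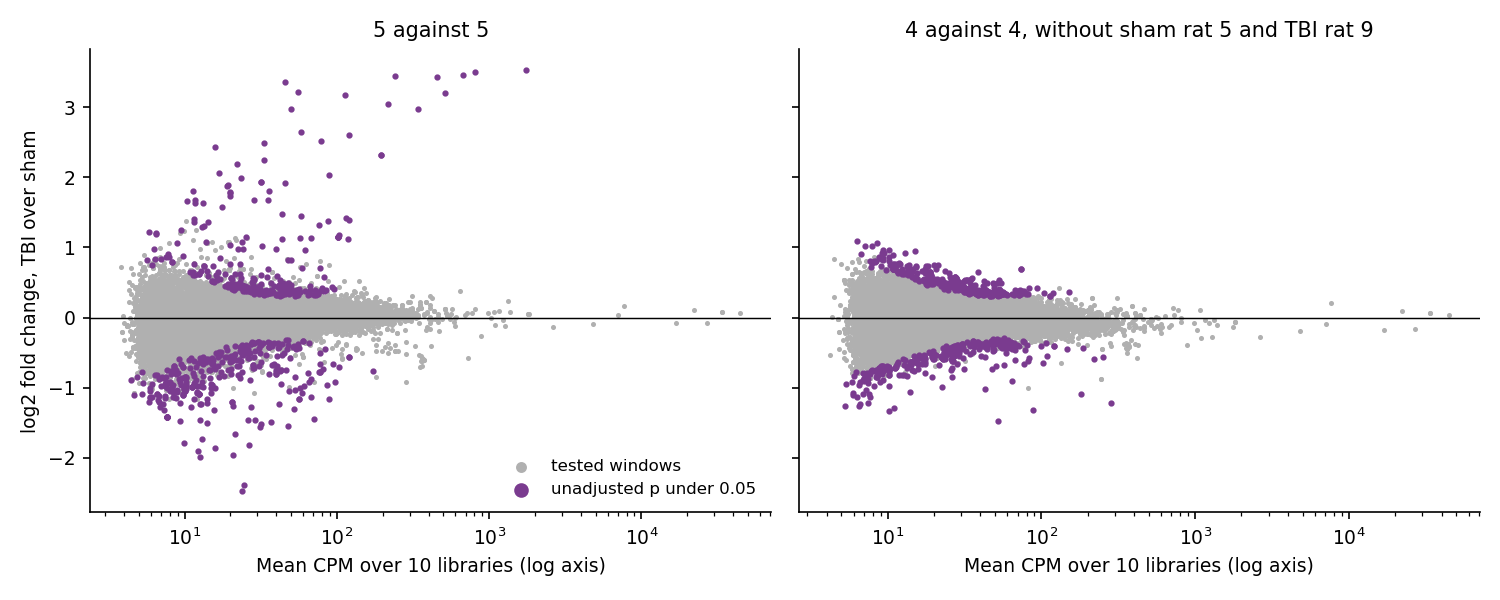
log2 fold change of TBI over sham (vertical) against the mean CPM of the window (horizontal, log axis), with 1 point per tested window and those at an unadjusted p under 0.05 in purple. With 5 against 5 libraries (left) changes reach 3.53 and −2.48, and with 4 against 4 (right) they lie between −1.48 and 1.09.

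Many of the windows with an unadjusted p under 0.05 had their extreme level in sham rat 5 or TBI rat 9. Among the 320 windows lower in TBI at an unadjusted p under 0.05, sham rat 5 had the highest CPM in 245, against 5245 of all 20017 tested windows, and 123 (44.4%) of the 277 identifiers matched to cortex were more than 2-fold higher in cortex than in the 8 other hippocampus libraries. Over all tested windows this share was 11.0%. For thalamus the shares were 34.3% of these identifiers and 7.51% of all. Among the 250 windows higher in TBI, TBI rat 9 had the highest CPM in 130, against 2129 of all 20017 windows, and sham rat 5 the lowest in 108, against 5769 of all, and 2.2% of the matched identifiers were more than 2-fold higher in cortex. No test was run on these shares, since the same libraries entered the fit. The median log2 fold change of the lower windows was −0.80 with 10 libraries and −0.41 without rats 5 and 9 (297 windows tested, 296 below 0), and that of the higher ones was 0.54 and 0.33 (246 tested, 211 above 0). Both comparisons share 8 libraries, so the second set of values is no independent measurement.

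Window ENSRNOG00000020793 had the smallest unadjusted p of this comparison. It had 30.8, 26.9, 26.6, 27.2 and 28.5 CPM in sham rats 1 to 5 and 44.1, 39.9, 47.5, 45.4 and 32.3 CPM in TBI rats 6 to 10. The groups did not overlap, and the lowest TBI value, that of rat 10, was close to the highest sham value. Means were 28.0 ± 1.72 CPM (sham) and 41.8 ± 6.02 CPM (TBI) (SD, n = 5 each; exact two-sided permutation p = 0.00794, the smallest that 5 against 5 libraries allow). The log2 fold change was 0.58 (SE 0.15, edgeR adjusted p = 1.00), and without rats 5 and 9 it was 0.55 (SE 0.17, adjusted p = 0.999). On the scale set jointly with the cortex, the cortex levels of this window were 34.9 to 40.7 CPM in sham and 31.5 to 45.4 CPM in TBI, and these overlapped. The window was picked for its rank among 20017, which the exact p does not take into account.

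Window ENSRNOG00000050597 had the smallest unadjusted p among those lower in TBI. Its counts were 58, 115, 52, 47 and 488 in sham rats 1 to 5 and 39, 45, 36, 62 and 51 in TBI rats 6 to 10. As CPM this was 43.5, 68.7, 25.6, 23.3 and 191 in sham and 26.8, 31.0, 16.9, 25.8 and 22.5 in TBI, so that sham rat 5 was far above the rest, sham rat 2 came next and the groups overlapped. The sham mean of 70.4 ± 69.7 CPM (SD, n = 5) fell to 40.3 ± 21.0 CPM (SD, n = 4) without rat 5, against 24.6 ± 5.25 CPM in TBI (n = 5). The log2 fold change was −1.55 (SE 0.45, adjusted p = 1.00) with 10 libraries and −0.73 (SE 0.26, adjusted p = 0.999) with 8. In cortex, on the joint scale, the window had 67.4 to 226 CPM in sham and 24.9 to 181 CPM in TBI, and in thalamus 133 to 212 and 42.0 to 197 CPM.

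The 10 windows with the smallest p of the comparison with 10 libraries fell into 3 kinds. The groups did not overlap in 3 windows, at ranks 1, 2 and 5, which were all higher in TBI with log2 fold changes of 0.58, 0.77 and 0.73. The 4 lower windows, at ranks 3, 4, 6 and 10, had their highest level in sham rat 5, with log2 fold changes of −1.55, −1.50, −1.47 and −2.48. Without rats 5 and 9 these were −0.73, −1.07, −0.75 and −0.50. The other 3, at ranks 7 to 9, had their highest level in TBI rat 9 and log2 fold changes of 3.17 to 3.36, which were 0.16, 0.09 and 0.38 without rats 5 and 9.

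Promoters that separate cortex from hippocampus moved with single sham libraries. Over the 277 windows (265 identifiers) at least 4-fold higher in cortex, the median CPM was 3.0, 6.57, 3.44, 2.97 and 17.2 in sham rats 1 to 5 and 4.13, 2.75, 2.82, 5.83 and 4.42 in TBI rats 6 to 10. Sham rat 5 was highest, followed by sham rat 2 and TBI rat 9. The positions toward the cortex were computed from these promoters and those lower in cortex, so the order is no separate result. With 10 libraries, the mean log2(CPM + 1) of 248 of the 277 windows (89.5%) was lower in TBI, with a median difference of −0.41, against 47.2% and 0.02 over all 22307 windows. Without rats 5 and 9 it was lower in 184 (66.4%, median −0.16), and without rat 2 as well in 124 (44.8%, median 0.036). Most of these windows had too few counts for the edgeR fit, which tested 108 with 10 libraries and 76 with 8. Its median log2 fold change was −0.87 with 10 libraries (108 below 0) and −0.19 without sham rat 5 (76 of 114 below 0). With 8 libraries it was −0.37 (58 below 0), and without sham rat 2 as well 0.044 (42 of 90 below 0).

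In the 72 windows (65 identifiers) at least 4-fold lower in cortex, sham rats 5 and 2 were at the other end. Their median was 337, 191, 318, 398 and 91.6 CPM in sham rats 1 to 5 and 245, 322, 313, 250 and 243 CPM in TBI rats 6 to 10. Sham rats 5 and 2 were the lowest and sham rats 4 and 1 the highest. The median log2 difference of TBI and sham was 0.22 with 10 libraries (2 of 72 windows lower in TBI), −0.08 without rats 5 and 9 (53 of 72 lower) and −0.31 without rat 2 as well (70 of 72 lower). In the edgeR fit the median log2 fold change was 0.058 with 10 libraries (23 of 72 below 0), −0.069 without sham rat 2 (54 below 0) and −0.16 without sham rat 5 (66 below 0). With 8 libraries it was −0.13 (66 below 0), and without sham rat 4 as well 0.017 (33 below 0). The direction of this set therefore changed with the libraries used, and its size with the measure. These sets were chosen on the mean of the hippocampus libraries other than rats 5 and 9 and of the cortex libraries other than rats 4 and 6, and no test was run on them.

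**Figure D3:**
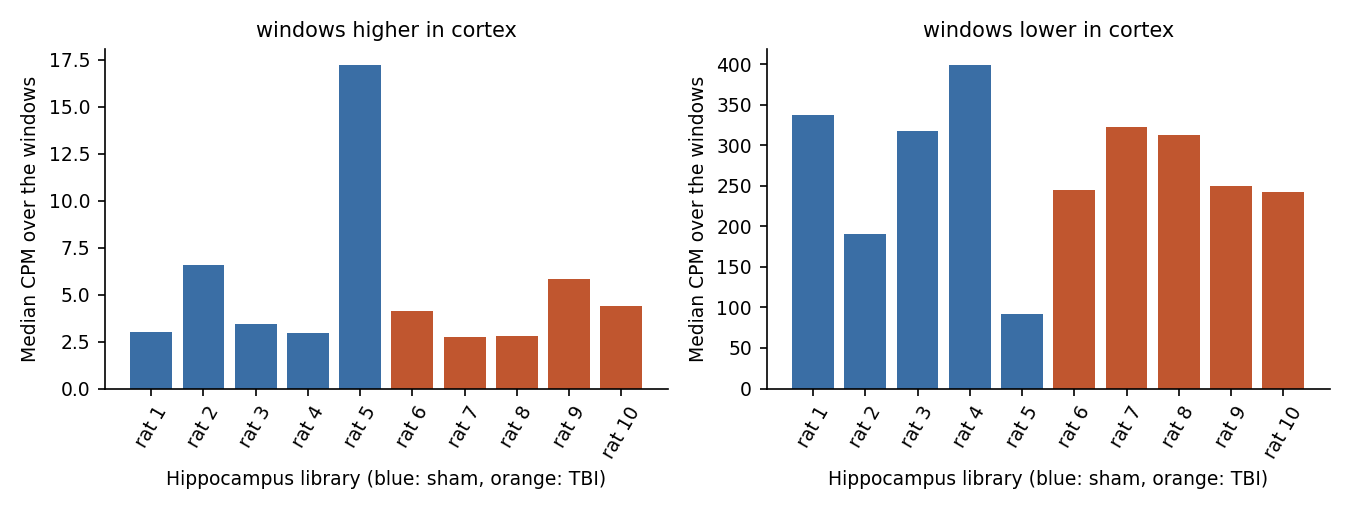
Median CPM over 277 windows at least 4-fold higher (left) and 72 windows at least 4-fold lower (right) in cortex than in hippocampus, with 1 bar per hippocampus library (blue sham, orange TBI). Sham rat 5 has 17.2 CPM on the left, where the others have 2.75 to 6.57, and 91.6 CPM on the right, where the others have 191 to 398.

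The excess of TBI rat 9 was limited to few windows but was very large there. In the 36 windows over 8-fold above all other libraries, the median was 329 CPM in rat 9 and 6.88 to 22.1 CPM in the other 9. These windows belonged to 31 identifiers and had 32 distinct count patterns, so that some overlapping windows were counted more than once. The largest excess was in a window with 16454 counts (6855 CPM) in rat 9 and 61 to 455 counts (40.6 to 275 CPM) in the other 9. With 10 libraries edgeR gave it a log2 fold change of 3.50 (SE 1.11, adjusted p = 1.00), and with 8 one of −0.07 (SE 0.37, adjusted p = 0.999). Over all 36 windows the median difference of mean log2(CPM + 1) was 0.78 with and −0.21 without rats 5 and 9. In the edgeR fit the median log2 fold change was 2.50 with 10 libraries (31 windows tested) and −0.13 with 8 (30 tested). Their sequences were not analysed here.

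Without sham rat 5 and TBI rat 9, again no window was called. Of 19255 tested windows 0 (0%) passed an adjusted p of 0.05, the smallest adjusted p being 0.999, and 603 (3.13%) were below 0.05 before adjustment. TBI had the higher level in 317 of these (1.65%) and the lower in 286 (1.49%). DESeq2 called 0 as well, with 289 at an unadjusted p under 0.05. The spread between libraries was smaller, with a biological coefficient of variation estimated by edgeR of 0.158 instead of 0.249 with 10 libraries. This is no separate result, since the libraries left out had been picked for their deviating profiles in these counts. The log2 fold changes had 5th and 95th percentiles of −0.38 and 0.37 and a median standard error of 0.21. The CPM of the groups did not overlap in 218 windows that were higher (1.13%) and 166 that were lower in TBI (0.862%). Random labelling of 4 against 4 separates a window more often, with a probability of 0.0286 (smallest exact two-sided permutation p). The 2 shares together were below this too, so the larger numbers do not show clearer groups. The 3.13% at an unadjusted p under 0.05, and the 2.85% with 10 libraries, were likewise below the threshold of 0.05. Windows share libraries, so these comparisons are no test. The windows at an unadjusted p under 0.05 showed little excess of identifiers higher in cortex or thalamus, and identifiers lower there were not counted. Of the matched identifiers, 7.77% of those higher and 12.4% of those lower in TBI were over 2-fold higher in cortex, against 11.0% over all windows tested with 10 libraries. For thalamus the shares were 6.01% and 8.91%, against 7.51%.

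Window ENSRNOG00000013000 had the smallest unadjusted p of the comparison of 4 against 4. It had 49.5, 75.3, 53.6 and 65.8 CPM in sham rats 1 to 4 and 43.4, 33.7, 35.2 and 39.8 CPM in TBI rats 6, 7, 8 and 10, and these groups did not overlap. Means were 61.1 ± 11.7 CPM (sham) and 38.0 ± 4.4 CPM (TBI) (SD, n = 4 each; exact two-sided permutation p = 0.0286, the smallest that 4 against 4 allow). The log2 fold change was −0.69 (SE 0.16, edgeR adjusted p = 0.999). As this window was picked for its rank among 19255, the exact p does not take the choice into account. The 2 libraries left out lay on the other side, with 31.7 CPM in sham rat 5, below all TBI values, and 78.7 CPM in TBI rat 9, above all sham values. With them the log2 fold change was −0.24 (SE 0.25, adjusted p = 1.00).

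Window ENSRNOG00000023107 had the smallest unadjusted p among those higher in TBI. It had 30.0, 29.9, 33.0 and 23.8 CPM in sham rats 1 to 4 and 51.6, 42.0, 45.6 and 44.6 CPM in TBI rats 6, 7, 8 and 10. All TBI values were above all sham values, with means of 29.2 ± 3.87 and 45.9 ± 4.08 CPM (SD, n = 4 each; exact two-sided permutation p = 0.0286). This window too was picked for its rank among 19255, which the exact p does not take into account. The log2 fold change was 0.65 (SE 0.16, edgeR adjusted p = 0.999) with 8 libraries and 0.45 (SE 0.17, adjusted p = 1.00) with 10. TBI rat 9 had 39.2 CPM, still above sham rats 1 to 4, whereas sham rat 5 had 44.9 CPM, within the TBI values.

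Of the 10 windows with the smallest p in this comparison, 8 were lower and 2 higher in TBI, with log2 fold changes of −1.29 to 0.67. The CPM of the 8 libraries overlapped between groups in 5 of the 10.

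**Figure D4:**
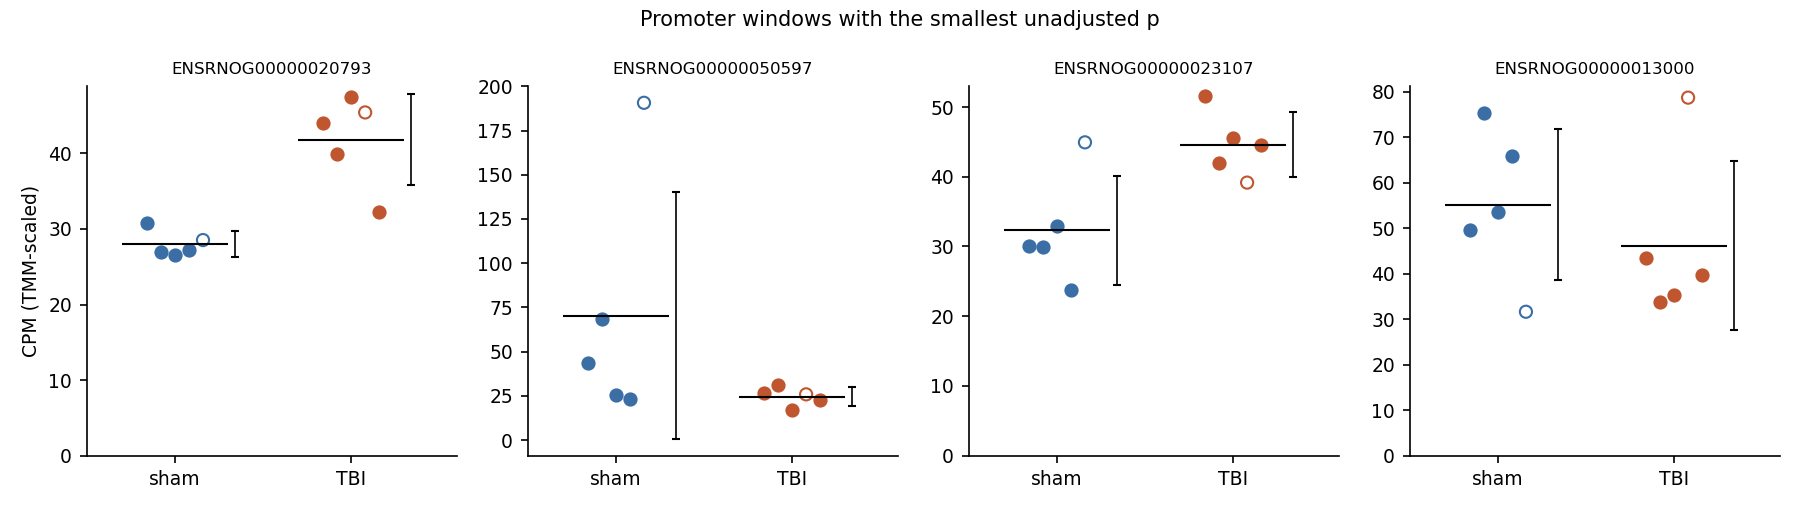
CPM of 4 promoter windows in sham (blue) and TBI (orange), with 1 point per rat, open points for sham rat 5 and TBI rat 9, a line at the mean and a bar for ± SD (n = 5). ENSRNOG00000050597 is carried by sham rat 5 at 191 CPM, and in ENSRNOG00000013000 both open points lie on the side of the other group.

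Sham rat 5 and TBI rat 9 did not enter the choice of windows with 4 against 4, but they had been left out for their profiles and are no independent check of it. Their values in these windows are therefore given as a description. For each window tested with 4 against 4, the log2(CPM + 1) of TBI rat 9 was set against the midpoint of the 4 sham and the 4 TBI libraries. Rat 9 was above the midpoint in 163 of the 317 windows that were higher in TBI at an unadjusted p under 0.05 (51.4%), in 176 of the 286 lower ones (61.5%) and in 48.1% of all windows tested. Sham rat 5 was above the midpoint in 205 of the 317 higher windows (64.7%), in 131 of the 286 lower ones (45.8%) and in 49.3% of all. In windows whose 4 against 4 groups did not overlap, rat 9 was above the midpoint in 50.9% of the higher and 53.0% of the lower ones, and rat 5 in 51.8% and 48.2%, all near the shares over all windows.

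The exact test of edgeR with 1 dispersion common to all windows made calls where the quasi-likelihood test made none. With 10 libraries it called 182 of 22301 windows with TMM (0.816%), 93 higher (0.417%) and 89 lower (0.399%), and 186 with library totals (0.834%), 70 higher and 116 lower. Over the 93 higher windows the median CPM was 131 in TBI rat 9 and 7.57 to 15.8 in the other 9. Over the 89 lower windows it was 50.4 in sham rat 5, 12.5 in sham rat 2 and 5.17 to 7.38 in the other 8. With 8 libraries the test called 9 of 22296 windows with TMM (0.0404%) and 5 with library totals (0.0224%), all lower in TBI. Sham rat 1 had the highest CPM of the 8 libraries in 7 of the 9 and sham rat 2 in 2. Of the 9 windows, 2 had equal counts in every library.

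The one of those 9 windows with the largest fold change had 276 CPM in sham rat 1, 31.1, 26.6 and 17.3 CPM in sham rats 2 to 4 and 26.8 to 34.8 CPM in TBI rats 6, 7, 8 and 10. By quasi-likelihood, edgeR estimated a log2 fold change of −1.48 for it (SE 0.50, adjusted p = 0.999). In both windows led by sham rat 2, sham rat 3 came next, with 69.9 and 120 CPM against 105 and 133 CPM in rat 2. Sham rats 1 and 4 had 20.8 to 54.8 CPM in them and the 4 TBI rats 25.4 to 53.6 CPM, so that sham rat 4 was below all 4 TBI rats and sham rat 1 was within their values or just above them. These windows were the only ones called by the quasi-likelihood test without sham rat 4 (log2 fold change −1.32 and −1.16, adjusted p = 0.0332 for both).

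Leaving out a library in turn changed the number of windows at an unadjusted p under 0.05 more than the number called. With 10 libraries the latter stayed at 0 and the former ranged from 457 to 939. Without sham rat 5 TBI was higher in 456 and lower in 229, without TBI rat 9 it was higher in 150 and lower in 393, and without sham rat 4 the number was 939. With 8 libraries it ranged from 530 to 1503, with 1503 (733 higher and 770 lower) without sham rat 2. Without this rat, 1 window was called, lower in TBI (log2 fold change −0.89, SE 0.14, adjusted p = 0.00809). It had 99.1, 37.0, 74.8 and 85.1 CPM in sham rats 1 to 4 and 42.3 to 51.3 CPM in the 4 TBI rats, so that only sham rat 2 lay below them. Sham rat 5, also not in that fit, had 28.9 CPM, and TBI rat 9 had 58.3 CPM. These windows were picked with their values already known.

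**Figure D5:**
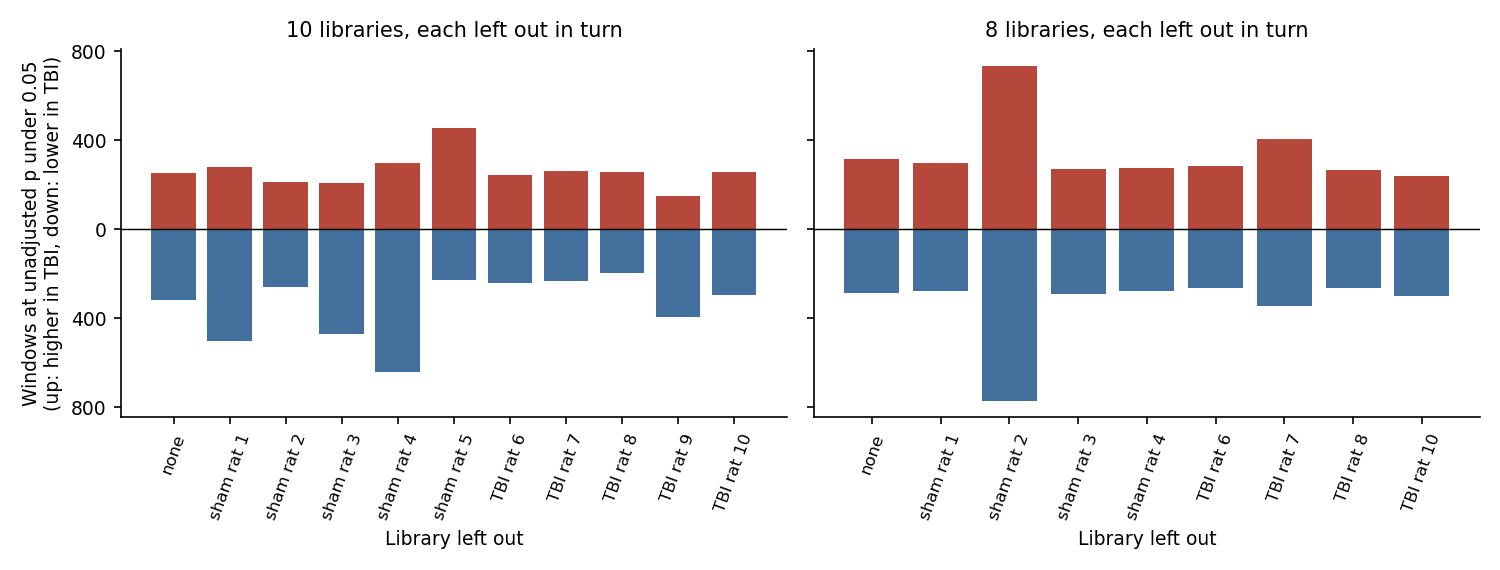
Number of windows at an unadjusted p under 0.05 in the quasi-likelihood test (up, higher in TBI; down, lower in TBI) with no library and with each library left out, starting from 10 (left) or 8 libraries (right). The lower windows prevail without sham rat 4 (298 higher and 641 lower), the higher ones without sham rat 5 (456 and 229), and the number reaches 1503 on the right without sham rat 2.

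How small a change the data could show depended on the level of the window. In the lowest quartile of tested windows (mean 3.85 to 12.8 CPM, median 17.2 counts per library), the 95% interval of the fold change lay within 2-fold in either direction for 48.6% of windows with 10 libraries and 59.0% with 8. In the highest quartile (mean 49.9 CPM or more, median 144 counts per library) this held for 97.1% and 99.2%. Over all tested windows it held for 83.1% with 10 and 88.8% with 8 libraries, and within 1.5-fold for 42.9% and 50.4%. In most windows a 2-fold difference was thus outside the interval. The median coefficient of variation of CPM in the highest quartile was 23.8% in sham and 13.8% in TBI, and 15.7% in sham without rat 5 and 12.4% in TBI without rat 9. In the lowest quartile it was 39.7% and 33.7% with all libraries.

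The most strongly captured windows varied several-fold between rats of 1 group. The 10 windows with the highest mean CPM took 8.55% to 32.1% of the counts of a library. The first of them had 104079, 37735, 32469, 30544 and 13609 CPM in sham rats 1 to 5 and 94616, 22977, 27495, 16825 and 65843 CPM in TBI rats 6 to 10. The TBI values lay within the range of the sham values, with means of 43687 ± 34950 and 45551 ± 33466 CPM (SD, n = 5 each) and a log2 fold change of 0.06 (SE 1.22, adjusted p = 1.00). Those at ranks 1, 2, 3, 5 and 7 rose and fell with the same libraries, with a Pearson r of log2(CPM + 1) of at least 0.962 across the 10 libraries, which share depth and scaling. Ranks 4, 6 and 9 formed another such group, with an r of at least 0.999, and rank 8 had an r of 0.897 to 0.903 with them. Ranks 2 and 3 had equal counts in every library. Among all 22307 windows, 3328 with at least 20 counts in sum shared their counts with another window in all 10 libraries, so that the number of windows exceeds the number of separate measurements.

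Whether the effect of TBI in the hippocampus differed from that in the other tissues was tested as an interaction of tissue and TBI over promoters matched by identifier. The quasi-likelihood test called 0 of 19641 promoters (0%) against the cortex and 0 of 19555 (0%) against the thalamus, with 308 (1.57%) and 367 (1.88%) at an unadjusted p under 0.05. Without the hippocampus libraries of rats 5 and 9 these numbers were 260 and 475, with 0 called. With the rat as a block, since each rat gave all tissues, they were 308 and 159, with 0 called. In cortex, sham rat 4 and TBI rat 6 stood apart from their label, at positions of 0.38 and 0.187 on the scale from hippocampus to cortex, and both entered the first of these fits.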

How the data were processed

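MBD-seq reads had been mapped by the authors to Rnor_5.0 with STAR without splicing, and Repitools in R 3.1.0 gave whole-number counts per promoter window, exon and gene body. The deposited counts were not normalized and replicates were not pooled. Promoter counts were used for all results, all columns could be mapped to a sample by name (0 were left out), and the exon and gene body tables entered no comparison.

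Windows were filtered by filterByExpr (minimum count 10, minimum total count 15), scaled by TMM and tested by the quasi-likelihood F test of edgeR 4.0.16 in R 4.3.3, with Benjamini-Hochberg adjustment and a threshold of 0.05. CPM were computed with the TMM factors of the 10 libraries, and set differences with a pseudocount of 1 CPM. The alternatives were DESeq2 1.42.0, limma 3.58.1 voom with sample quality weights, library totals, other filters, the exact test with a common dispersion on every window with at least 1 count, and each library left out in turn. Leaving out each library for the exact test and leaving out rat 2 for sets of windows were added after the data were seen. In counts simulated on 20017 windows with 5 against 5 libraries, the quasi-likelihood test found 4% of 1.5-fold, 52% of 2-fold and 84% of 3-fold changes. On 19255 windows with 4 against 4 it found 21%, 56% and 94%. All 2-fold changes were set as decreases and all 3-fold ones as increases in TBI. Counts were drawn independently for each library, without a shift shared by its windows as in sham rat 5. The shares found therefore need not hold for the real libraries. Of unchanged windows, 5 and 11 were called in these simulations, and 0 in both when none were changed. The changed windows called, by rising fold, numbered 4, 26 and 42 with 5 against 5 and 21, 28 and 47 with 4 against 4.

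For the interaction, 19758 identifiers with 1 count pattern per tissue were matched by identifier, since the tables hold no positions. Equal rat numbers in the labels mark the same animal in all tissues. Deviations from the group mean correlated between tissues of a rat with a median r of 0.0287 for cortex and −0.0566 for thalamus (over 0.1 in 2 and 3 of 10 rats). For the tissue scale, cortex libraries 4 and 6 and hippocampus libraries 5 and 9 were left out of the reference for their profiles. Hippocampus libraries differed pairwise beyond counting noise (chi-square per window 2.13 or more for every pair).

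The libraries left out, the window sets and the gene lists were chosen with earlier results of these data known. The windows to be named were the 10 with the smallest p of each comparison, the leading calls of the exact test, the 10 with the highest CPM, and lists of genes. Identifiers were not paired with gene symbols, so no gene list could be evaluated, and only the window with the smallest p in each direction of each comparison is named (4 in all). Figures were drawn with matplotlib 3.10.9, and sequences were aligned with Biopython 1.88.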

Additional observations from a re-analysis of the deposited data

Results flagged for a closer look

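A library was flagged where the gap to the nearest of the other 4 of its group was large relative to the group's range (Dixon's criterion). Of 26 groups of 5 values examined, 8 were flagged, all in sham rat 5 or TBI rat 9. Chance flags about 1 in 20 groups (about 1.3 here), but this number is no yardstick for these values, since both libraries had been singled out for such properties and the windows picked with their values known.

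The Pearson r of log2(CPM + 1) across tested windows with the mean of the reference hippocampus libraries was 0.83 for sham rat 5 (other sham rats 0.948 to 0.975) and 0.934 for TBI rat 9 (other TBI rats 0.964 to 0.973). Windows over 2-fold above the highest other library numbered 655 in sham rat 5 (other sham rats 0 to 9) and 263 in TBI rat 9 (other TBI rats 0). Windows over 8-fold above it numbered 2 in sham rat 5 and 36 in TBI rat 9 (other rats 0). ENSRNOG00000050597 had 191 CPM in sham rat 5 (other sham rats 23.3 to 68.7), and ENSRNOG00000013000 had 78.7 CPM in TBI rat 9 (other TBI rats 33.7 to 43.4). The position of sham rat 5 toward the cortex (0.909) was not flagged, because sham rat 2 (0.337) lay between it and the others.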

How the results depend on the processing

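The number of called windows stayed at 0 under 15 of 17 alternatives with 10 libraries, under 11 of 15 with 8 libraries, and under all 14 alternatives of each interaction. With a common dispersion, edgeR's exact test called 186 (library totals) and 182 (TMM) windows with 10 libraries, and 5 and 9 with 8. Leaving out a rat in turn gave 0 calls in the quasi-likelihood test with 10 libraries and 0 to 2 with 8 (1 without sham rat 2, 2 without sham rat 4). In the exact test with TMM it gave 64 to 250 calls with 10 libraries. Without TBI rat 9 the 64 calls were all lower in TBI. Without sham rat 5 there were 123 calls, 114 higher and 9 lower, against 93 higher and 89 lower with all 10 libraries. With 8 libraries, leaving out a rat gave 4 to 18 calls (5 without sham rat 1, 18 without sham rat 2, 14 each without sham rat 4, TBI rat 7 and TBI rat 10, 4 without TBI rat 8). With 8 libraries, windows at an unadjusted p under 0.05 numbered 603, but 289 with DESeq2, 313 with library totals and 1077 with voom. For the interactions, library totals gave 155 (cortex) and 189 (thalamus), and leaving out a rat 203 to 873 and 298 to 888 (873 and 888 without TBI rat 6, 727 for cortex without sham rat 1, 203 for cortex without sham rat 5, 559 for thalamus without sham rat 4). With the rat as a replicate block the pairing changed no call (0 and 0) and gave 308 and 159 at an unadjusted p under 0.05. Between hippocampus sham and TBI no paired analysis was possible because the groups share no rat. The log2 fold change of ENSRNOG00000050597 was −0.59 with voom and −0.70 without sham rat 5, and it was called by the exact test (−1.75 with library totals, −1.51 with TMM). The fold changes of the other 3 named windows kept their direction without a call under every alternative. The median difference of windows higher in cortex turned from −0.16 to 0.036 without sham rat 2, and that of windows lower in cortex moved from −0.08 to −0.31. Beyond the libraries named, the cause was not tested. Levels of gene lists were not run. Changes of 1.5-fold were mostly not called in simulated counts, whose shares need not hold for the real libraries. Of simulated 1.5-fold changes, 4% were found with 10 libraries and 21% with 8. Many simulated 2-fold changes were missed as well, with 52% and 56% found.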
